A study of Drosophila melanogaster with 27 samples.

Results

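The Bomanins are a family of short immune peptides of the fruit fly, and their RNA was followed here in whole adult males of Drosophila melanogaster. The family was chosen by its gene symbols, with the expression values of these same arrays already known, so that what follows describes these arrays and is not an independent test. Of 8 listed members (BomBc1, BomBc2, BomBc3, BomS1, BomS2, BomS3, BomT1 and BomT2), 4 had a probe set named for them, 1 probe set each: BomS2, BomT2, BomBc2 and BomBc3. These 4 were among 11981 genes named on the array. BomBc1, BomS1, BomS3 and BomT1 were not analysed here. Another 4 genes of the family outside the listed members, BomS4, BomS5, BomS6 and BomT3, had a probe set and are given beside them.

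Bomanins are secreted into the hemolymph, mostly by the fat body, after infection with Gram-positive bacteria or fungi switches on the Toll pathway. They are grouped by form: short peptides that hold little more than the Bomanin motif (BomS), tailed peptides with the motif followed by a further stretch (BomT), and bicipital peptides in which a linker joins a pair of motifs (BomBc). Flies that lack the main cluster of these genes survive poorly when infected with microbes that Toll normally controls.

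The study asked which changes in RNA level go with inbreeding depression, the loss of fitness that follows mating between relatives. Founding pairs from a large outbred population gave 4 inbred lines (numbered 5, 7, 12 and 15), each split into sublines kept for 8 generations of sib mating, to an inbreeding coefficient of about 0.7. From each line the 3 most depressed sublines that had enough flies for analysis (+D) and the 3 least depressed sublines (-D) were hybridised, 1 array for a pool of males of each subline. The levels were set by how many pupae a subline produced. The outbred control had 3 arrays, so there were 27 arrays in 9 groups of 3. No label names an infection of any group. Sublines differ genetically, so the spread within an inbred group holds differences between sublines as well as between pools. The 3 control samples are pools of 1 population.

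All values are log2 expression, so a difference of 1 is a doubling. The deposited arrays were even in level, with medians between 6.32 and 6.54. Of 18769 probe sets, 9512 reached a log2 value of 7 in at least 1 array and were tested, and all 8 Bomanin probe sets were among them. The labelled sex was checked with testis and accessory gland genes. Of 12 testis genes listed, all with a probe set, 10 passed the filter of 7 and the rest never reached it. All 9 accessory gland genes listed passed. The medians over the arrays of those that passed were at least 8.66 and 10.57, levels that go with labelled males, though the filter itself favours high genes. Eggshell and yolk genes should be near absent in males. Their level in an array, as the median over 12 genes of the deviation from each gene's median, reached 4.19 among the most depressed arrays, 0.33 among the least depressed and 0.28 among the controls. The summed level of the 12 (log2 of the sum of linear values) reached 14.43, 13.62 and 11.57 in these groups. The median of that sum was 9.30 in the least depressed arrays, so some egg or yolk RNA was high in a -D array too, which was kept. The 3 arrays with eggshell transcripts were line 5 +D replicate 3, line 7 +D replicate 2 and line 15 +D replicate 2. Of 20 egg and yolk genes listed, 18 had a probe set and the 12 passed the filter of 7. Only 4 pass it without these 3 arrays, so the rest of the 12 entered through arrays in which they are high. The levels above are thus not those of the whole list. Differences between levels without the 3 arrays are given below for BomBc2 and BomT2 over the lines, BomT3 in line 5 and some gene lists. The remaining differences between levels include them. A set of sample codes was shared unevenly: 9 of 12 -D arrays and 1 of 12 +D arrays carried a later code, as did none of the controls. Some of these arrays carried an earlier and a later code joined, and they were counted as later.

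BomBc2, a bicipital Bomanin, was the member that followed the level of depression in all lines. In line 5 its log2 level was 12.20, 12.10 and 12.24 in the 3 most depressed sublines and 11.25, 11.31 and 11.10 in the 3 least depressed. In line 7 it was 12.10, 11.98 and 11.75 against 11.67, 11.63 and 11.36. The groups did not overlap in either line, though in line 7 the nearest arrays lay close together. In line 12 the level was 11.98, 11.98 and 12.43 in the most depressed sublines against 11.45, 11.31 and 11.72 in the least depressed. In line 15 it was 11.70, 11.69 and 11.70 against 11.44, 11.40 and 11.39. The most depressed sublines were thus above the least depressed ones of their own line in every line, with the widest separation in line 5. The share of all probe sets whose groups separate in this way is not given, here or for the genes below, so how unusual it is remains unknown. The outbred control, at 11.82, 11.63 and 11.75, lay between the levels: 10 of the 12 least depressed arrays were below all 3 controls and 8 of the 12 most depressed were above all 3.

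On average over the 4 lines BomBc2 was 0.57 higher in the most depressed sublines (SE 0.06), a fold of 1.48 (limma, adjusted p = 3.02e-06). The other 3 members did not pass: the difference was 0.24 (SE 0.12, limma adjusted p = 0.232) for BomS2, 0.99 (SE 0.87, adjusted p = 0.516) for BomT2 and 0.01 (SE 0.17, adjusted p = 0.983) for BomBc3. So 1 of 4 members was called, where 15.0% of the 9512 probe sets tested were, and with the family chosen from these data nothing is read from that count. The median difference of the members was 0.40, and that of all probe sets was -0.01. With the set of sample codes as a covariate the BomBc2 difference was 0.66 (SE 0.09, limma adjusted p = 4.89e-04). Among arrays counted in 1 code set it was 0.58 in line 7 (3 arrays against 1), 0.30 in line 15 (3 against 2) and 1.02 in line 5 (1 against 3), values with no test. In line 5 these were arrays counted as later, with joined codes at both levels, so that comparison is not strictly within 1 set. Without the 3 arrays with eggshell transcripts it was 0.56 (SE 0.07, limma adjusted p = 5.88e-05).

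Within single lines the sizes differed. BomBc2 rose by 0.96 in line 5 (SE 0.12, fold 1.95, limma adjusted p = 5.83e-04), where it was the member called of 4 and 2.01% of all probe sets were called. It rose by 0.64 in line 12 (SE 0.12, fold 1.56, limma adjusted p = 0.00543), again 1 of 4 members, with 4.62% called in all. That call was lost (same difference) when the spread was taken from the 6 arrays of line 12 alone. In line 7 the difference was 0.39 (SE 0.12, limma adjusted p = 0.224) and in line 15 it was 0.29 (SE 0.12, adjusted p = 0.294). By limma 0 of 4 members were called in either line, where 0.0421% and 1.43% of all probe sets were, and 1 of 4 in each line, BomBc2, was under 0.05 before adjustment. The test of whether the difference itself varied between lines (limma F test) gave BomBc2 an adjusted p of 0.336. It called 0 of 4 members, of which 1 was under 0.05 before adjustment, and 0.0841% of all probe sets. A difference in the BomBc2 response between lines is therefore not shown.

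**Figure D1:**
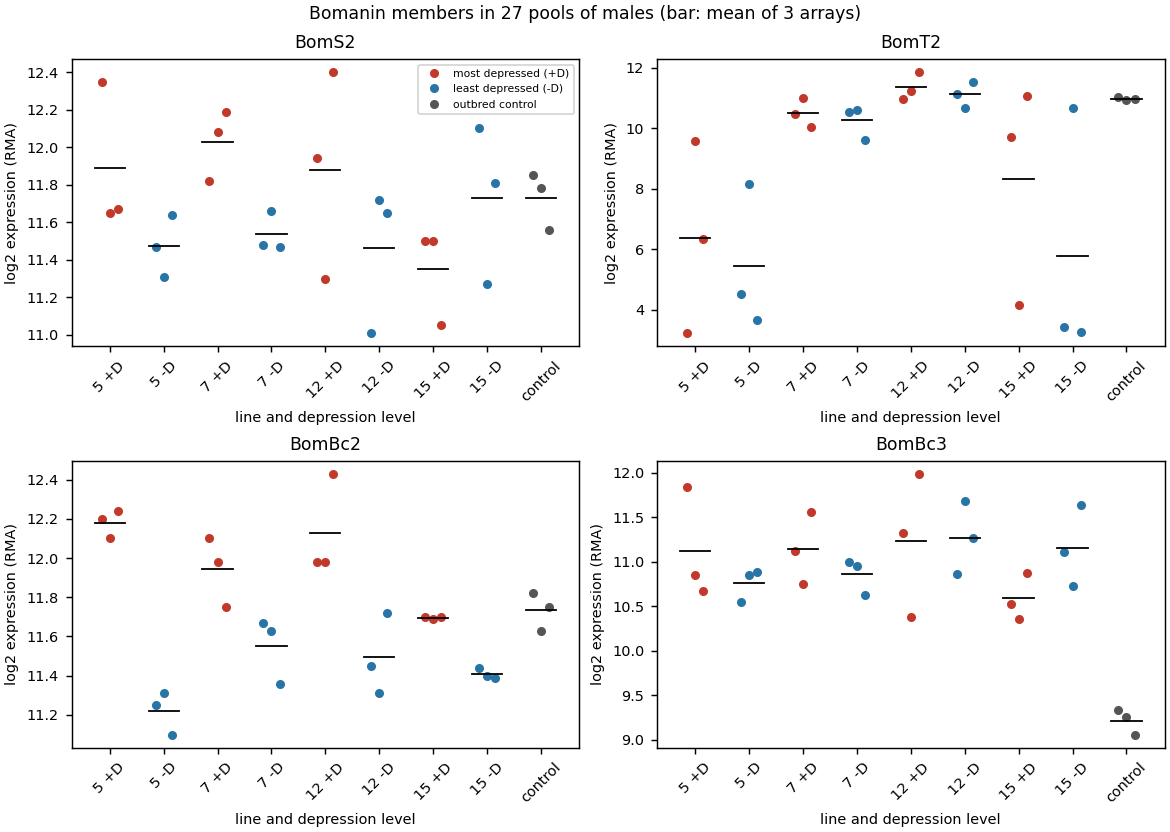
Log2 expression (vertical axes, which do not start at 0 and differ between panels) of the 4 Bomanin members in each array of the 9 groups (horizontal axis, line number with +D for most and -D for least depressed), 1 point for an array and a bar for the mean of 3. BomBc2 is higher in +D than in -D in each line, BomBc3 is lowest in the 3 controls, and BomT2 falls below 5 in 6 arrays of lines 5 and 15.

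BomBc3 is a bicipital Bomanin that lies apart from the main cluster, and it separated the control from all inbred flies. Its log2 level was 9.33, 9.26 and 9.06 in the control arrays. In the 12 most depressed arrays it ran from 10.36 through a median of 10.86 to 11.99, and in the 12 least depressed from 10.55 through 10.92 to 11.68. All 24 inbred arrays were above all 3 controls, and the inbred levels overlapped each other widely. How many of all probe sets separate from the control in this way is not given. The mean of the inbred groups was 1.80 above the control (SE 0.25), a fold of 3.49 (limma, adjusted p = 1.31e-05). It was the member called of 4 in this comparison, in which 43.9% of all probe sets were called and the median of all was 0.11, and nothing is read from that count. After centring each array on its median, the difference was 1.71 (SE 0.26, limma adjusted p = 3.79e-05).

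The remaining members did not pass against the control. BomS2 differed by -0.06 (SE 0.19, limma adjusted p = 0.806), BomBc2 by -0.03 (SE 0.09, adjusted p = 0.81) and BomT2 by -2.33 (SE 1.30, adjusted p = 0.152). For BomBc2 the levels lay on either side of the control. The most depressed sublines were 0.25 above it (SE 0.09, limma adjusted p = 0.0353) and the least depressed 0.31 below it, a log2 difference of -0.31 (SE 0.09, adjusted p = 0.00966). These 2 comparisons share the 3 control arrays, and the first call held under 28 of 35 alternatives. Against the control, 2 of 4 members were called in the most depressed sublines (39.2% of all probe sets) and 2 of 4 in the least depressed (45.8%). BomBc3 was the second in both, at 1.81 (SE 0.27) and 1.80 (SE 0.27).

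The lines and levels were hard to order by BomBc3. The group means ran from 9.21 ± 0.14 (SD, n = 3) in the control through 10.59 ± 0.27 in line 15 +D to 11.27 ± 0.41 in line 12 -D. Of the 8 steps between neighbours in this order, the step of 1.37 above the control exceeded the larger SD of its pair, and the other 7 did not. Within line 15 the most depressed sublines were at 10.53, 10.36 and 10.88 and the least depressed at 11.11, 10.73 and 11.64. In line 12 the +D values were 11.32, 10.38 and 11.99 against 10.86, 11.68 and 11.27. Both pairs of groups overlapped.

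BomT2, a tailed Bomanin, showed the widest range of the family, with high and low sublines inside the same groups. In line 5 its log2 level was 3.23, 9.57 and 6.33 in the most depressed sublines and 4.53, 8.14 and 3.65 in the least depressed. In line 15 it was 9.72, 4.16 and 11.07 in the most depressed and 3.43, 10.67 and 3.25 in the least depressed. Arrays below 5 and arrays of 9.5 or more occurred together in 3 of these 4 groups, and no array of line 5 reached 10. Line 7 stood at 10.46, 11.01 and 10.03 (+D) and 10.54, 10.61 and 9.61 (-D), and line 12 at 10.97, 11.23 and 11.85 (+D) and 11.14, 10.67 and 11.54 (-D). The control arrays read 11.02, 10.93 and 10.97. All 12 arrays of lines 7 and 12 and all 3 controls were therefore at 9.5 or more, against 4 of the 12 arrays of lines 5 and 15.

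Of all 27 arrays, 19 had BomT2 at 9.5 or more, 2 lay between 5 and 9.5, both of line 5, and 6 lay below 5, with 3 in line 5 and 3 in line 15. These limits were set after the values were seen. The low values reached down to 3.23. For scale, 31.6% of all values of the table were at or below 4.53, the highest of the 6. The table gives no detection calls, so how far BomT2 lies above background there is not known, and no fold is given. The range of BomT2 over the arrays was 8.62, and 4 of the 9512 probe sets, BomT2 included, had a range at least as wide, against a median range of 0.83.

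BomT2 was the member of 4 called for differences between the line means, levels averaged (limma F test, adjusted p = 0.0128), as were 12.1% of all probe sets. That test uses 1 spread for all groups, while the SD within groups ran from 2.38 to 4.24 in lines 5 and 15, from 0.44 to 0.56 in lines 7 and 12, and was 0.04 in the control. The difference between levels was 0.99 over the lines (SE 0.87), and its sign turned under array weights, at -0.07. Leaving out line 5 +D replicate 2 gave 0.59, and leaving out line 15 +D replicate 2 or line 15 -D replicate 2 gave 1.51 and 1.60. In the order of its 9 group means, from 5.44 ± 2.38 (SD, n = 3) in line 5 -D to 11.35 ± 0.45 in line 12 +D, no step exceeded the larger SD of its pair. The 3 arrays with eggshell transcripts read 6.33, 11.01 and 4.16. Without them the difference between levels over the lines was 1.45 (SE 0.87, limma adjusted p = 0.319).

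**Figure D2:**
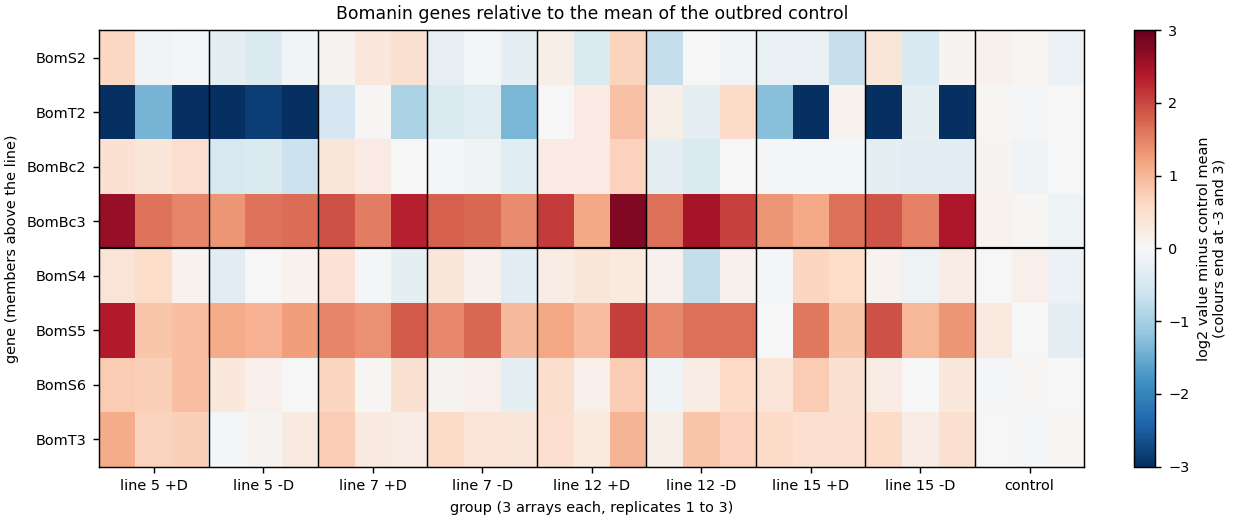
Log2 value of 8 Bomanin genes (rows, members above the line) minus the mean of the 3 outbred control arrays, in 27 arrays (columns, 3 for each group), with colours ending at -3 and 3. BomBc3 and BomS5 are above the control mean in the inbred arrays, and BomT2 is far below it in some arrays of lines 5 and 15.

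BomS2, a short Bomanin, was at a high level in every array, with no clear order of the groups. In line 5 its log2 level was 12.35, 11.65 and 11.67 in the most depressed sublines against 11.47, 11.31 and 11.64. In line 7 it was 11.82, 12.08 and 12.19 against 11.48, 11.66 and 11.47. The levels did not overlap in these 2 lines, although in line 5 the nearest arrays were at 11.65 and 11.64. In line 12 it was 11.94, 11.30 and 12.40 against 11.01, 11.72 and 11.65, and in line 15 it was 11.50, 11.50 and 11.05 against 12.10, 11.27 and 11.81. Both overlapped, and in line 15 the least depressed sublines had the higher mean (11.73 ± 0.42 against 11.35 ± 0.26, SD, n = 3). The control read 11.85, 11.78 and 11.56, within the range of the inbred arrays (11.01 to 12.40). None of the 8 steps between neighbouring group means exceeded the larger SD.

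Among the family genes outside the listed members, 1 of 4 passed for the level of depression, where 15.0% of all probe sets did. BomS6, a short Bomanin, was 0.41 higher in the most depressed sublines (SE 0.09, fold 1.33, limma adjusted p = 0.00319), with medians of 12.86 over 12 most depressed and 12.44 over 12 least depressed arrays. Its groups did not overlap in lines 5 and 15 and overlapped in lines 7 and 12. The values for BomS4 (0.29, SE 0.12, adjusted p = 0.0964), BomT3 (0.21, SE 0.09, 0.141) and BomS5 (-0.10, SE 0.19, 0.799) did not pass in limma. In line 5 alone BomT3, a tailed Bomanin, was 0.73 higher in the most depressed sublines (SE 0.18, limma adjusted p = 0.0389), a call that held under 24 of 37 alternatives. It was lost without the 3 arrays with eggshell transcripts (0.79, SE 0.21, limma adjusted p = 0.0931).

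Against the control 3 of these 4 were higher, in a comparison that called 43.9% of all probe sets, 2821 of them higher and 1351 lower. BomS5 was 1.33 higher in the inbred flies (SE 0.29, fold 2.51, limma adjusted p = 9.03e-04): the controls were at 9.39 to 9.98 and the 24 inbred arrays at 9.69 to 12.06, with a median of 11.02. BomT3 was 0.48 higher (SE 0.14, fold 1.40, adjusted p = 0.00651). BomS6 was 0.34 higher (SE 0.13, adjusted p = 0.0448), a call that held under 14 of 35 alternatives, and after median centring it was 0.25 (limma adjusted p = 0.166). BomS4 was at 0.12 (SE 0.17, adjusted p = 0.603).

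**Figure D3:**
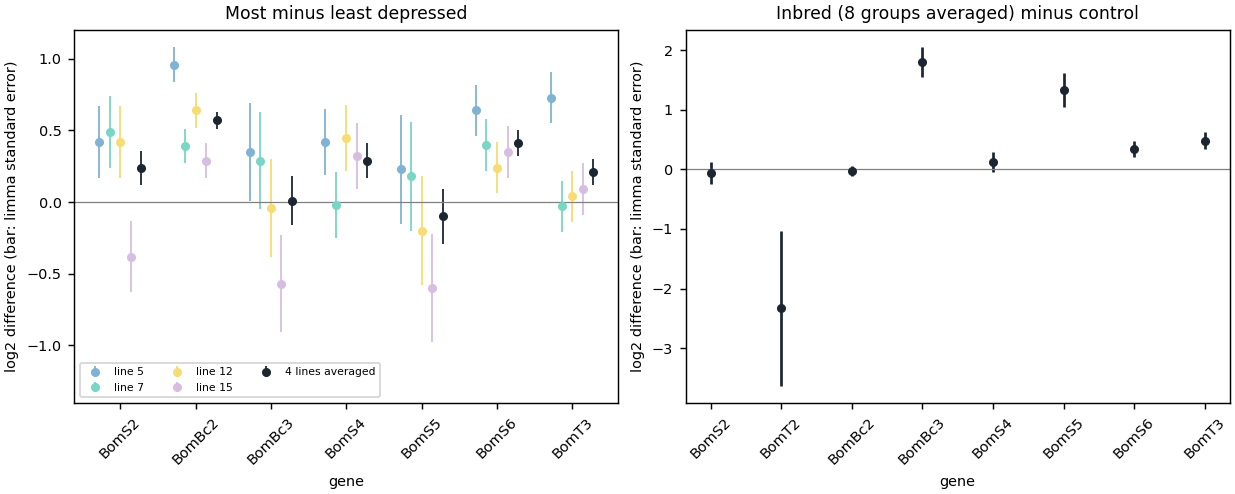
Log2 differences (points) with limma standard errors (bars) for Bomanin genes. Left, most minus least depressed sublines in each line and averaged over 4 lines, without BomT2, whose error bars within lines span more than the panel; right, the mean of 8 inbred groups minus the outbred control, in which BomBc3 (1.80) and BomS5 (1.33) are the highest and BomT2 (-2.33) has the widest error.

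In the reference annotation (release 6 of the fly genome, used for names and order only) 10 of 12 Bomanin genes lie together on chromosome arm 2R, in the order BomT1, BomBc1, BomS1, BomS4, BomBc2, BomS2, BomS3, BomT2, BomS5 and BomS6. BomT3 and BomBc3 lie next to each other on 3R. Some neighbours had like values and others did not. BomBc2 and BomS2, next to each other, stood at -0.03 and -0.06 against the control, but at 0.57 and 0.24 between levels. BomS5, between BomT2 and BomS6 on 2R, was at 1.33, nearer to BomBc3 on the other chromosome (1.80) than to its own neighbours (-2.33 and 0.34). The arm and order of a gene were compared by these values only, with no test.

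Pairs of Bomanins co-varied to unequal degrees between sublines. BomT2, with its wide range between arrays, was left out, and the control arrays, which stand apart for BomBc3, were too. This choice was made after the values were seen. Over the 24 inbred arrays BomBc2 went most closely with BomS6 (Pearson r = 0.70, Spearman rho = 0.68, and r = 0.64 without the 2 arrays farthest from the median). BomS2 went with BomBc3 (r = 0.69, rho = 0.67, 0.52 without the 2), as did BomS5 (r = 0.68, rho = 0.68, 0.53 without the 2). BomBc2 and BomBc3, both bicipital, had r = 0.25 (rho = 0.18, 0.05 without the 2), and the neighbours BomBc3 and BomT3 on 3R had r = 0.60 (rho = 0.49, 0.35 without the 2). Among the 12 most depressed arrays alone r was 0.42 for BomBc2 and BomS6, 0.81 for BomS2 and BomBc3, 0.73 for BomBc3 and BomS5 and 0.52 for BomBc2 and BomBc3. Among the 12 least depressed it was 0.33, 0.54, 0.56 and 0.18, so that within levels BomBc2 was not clearly closer to BomS6 than to BomBc3. These are 21 pairs described with no test, and arrays of 1 line share founders and code sets.

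**Figure D4:**
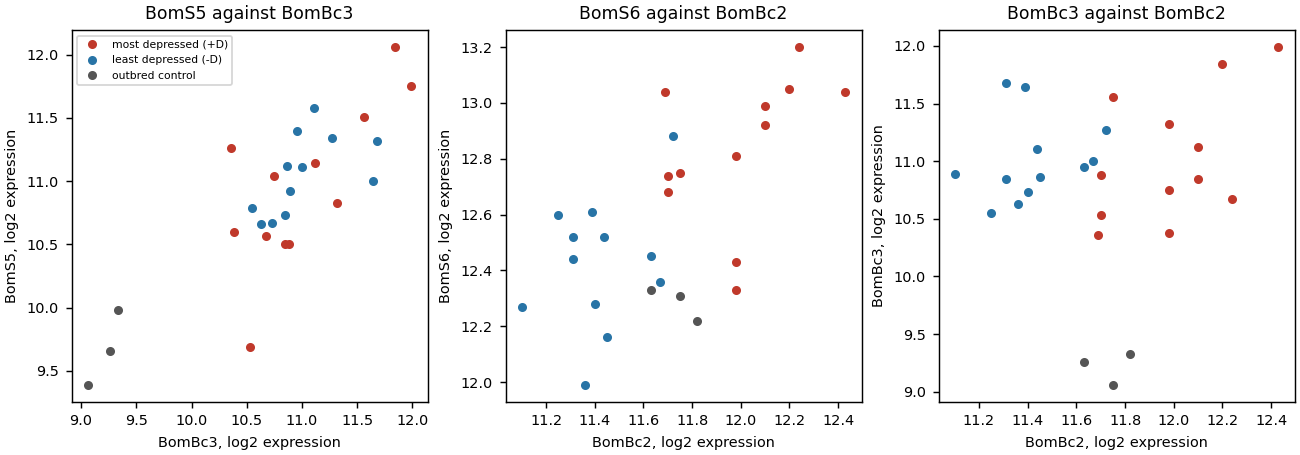
Log2 expression of 3 pairs of Bomanin genes over 27 arrays, 1 point for an array, coloured by level of depression or control. BomS5 goes with BomBc3, with the 3 controls at the lower left; BomS6 goes with BomBc2, with most +D arrays at the upper right; BomBc3 and BomBc2 have r = 0.25 over the 24 inbred arrays, 0.52 in +D and 0.18 in -D.

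The mean of the 4 centred members followed BomT2 (r = 0.941) rather than the family, because of the width of BomT2. The genes most like that mean were CG15263 (r = 0.633), Pak3 (0.631), mthl2 (0.623), sima (0.622), Cyp6a17, CG31199 and CG13117 (0.612 each), CG1637 (0.608) and Had2 (0.605) over 27 arrays, and the tenth was a probe set with no gene symbol here (0.609). Bomanin genes were left out of this search. Since that mean inherits the wide range of BomT2, each other member was also searched alone, a choice made after the values were seen. Genes were ranked over all 27 arrays, and r over the 24 inbred arrays is given beside it. For BomBc2 the nearest named genes were CG31313 (r = 0.829, inbred 0.83) and Irc (0.729, inbred 0.73), an immune-regulated catalase. CG31313 had a median of 11.91 in the most depressed, 11.46 in the least depressed and 11.68 in the control arrays, the same order of medians as BomBc2 (11.98, 11.40 and 11.75). It was picked for its likeness over these same arrays, so the shared order is not separate support. For BomBc3 they were CG11841 (r = 0.881, inbred 0.64) and Bbd (0.846, inbred 0.54), whose likeness was thus lower without the controls, where BomS2 (0.69) and BomS5 (0.68) were nearer to it than either. For BomS2 the nearest named gene was Sid (r = 0.701, inbred 0.70). Probe sets with no gene symbol here ranked first for BomS2 (r = 0.857, inbred 0.87) and second for BomBc3 (0.854, inbred 0.85).

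Bbd (Bombardier), whose product is needed for short Bomanins to appear in the hemolymph, shared the rise of BomBc3 against the control. Its log2 level ran from 12.20 to 13.14 in the most depressed and from 12.21 to 12.96 in the least depressed arrays, and from 11.24 to 11.42 in the controls, with no overlap. It was 1.32 higher in inbred flies (SE 0.15, limma adjusted p = 1.49e-06). Between levels it stood at 0.16 (SE 0.10, adjusted p = 0.32). The other Toll effectors with a probe set were not called by limma in either comparison (of the 4, Bbd included, 1 was under 0.05 before adjustment between levels). Over all probe sets 15.0% were called between levels and 43.9% against the control, and nothing is read from the calls of so few genes. For Drs (Drosomycin), an antifungal peptide and the usual readout of Toll, the difference was 0.08 between levels (SE 0.29, limma adjusted p = 0.893) and -0.21 against the control (SE 0.43, adjusted p = 0.719). Mtk (Metchnikowin) stood at 0.20 (SE 0.47) and 0.91 (SE 0.70), and IM33 at 0.12 (SE 0.05) and 0.10 (SE 0.07). Of 11 other Toll effectors listed, these 4 had a probe set.

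Genes that act upstream of the Bomanins in the Toll pathway were counted next. Of 13 tested among 20 listed, 5 were higher in the most depressed sublines and 0 lower by limma (8 did not pass, median 0.13), beside 15.0% called over all probe sets with a median of -0.01. The receptor Tl was at 0.37 (SE 0.09, limma adjusted p = 0.00967), the kinase Gprk2 at 0.33 (SE 0.07, 0.00207), the inhibitor cact at 0.28 (SE 0.06, 0.00318) and the transcription factor dl at 0.26 (SE 0.05, 0.00173). Without the 3 arrays with eggshell transcripts 5 were again higher and 0 lower, beside 1254 of 9328 probe sets called. Tl was then at 0.25 (SE 0.08, limma adjusted p = 0.0443), Gprk2 at 0.33, cact at 0.25 and dl at 0.23. Tl, cact and dl are also maternal transcripts of the egg, and the part of egg RNA in their differences was not tested. The egg and yolk genes had a median difference of 0.99 in this comparison (12 genes). Without the 3 arrays only 4 of the 12 passed the filter, with a median of 0.16, so these medians cover different genes and cannot be set against each other. With the sample code as a covariate 1 of the 13 was called, Tl (0.52, SE 0.14, limma adjusted p = 0.0394), beside 383 of all 9512 probe sets. Against the control 5 were higher and 4 lower (median -0.14), beside 43.9% called over all probe sets and a median of 0.11. Those that were higher included SPE (0.55, SE 0.14), the protease that activates the ligand, GNBP3 (0.43, SE 0.09), a sensor of fungi, and spz (0.37, SE 0.10), the ligand itself. Tl stood at -0.35 (SE 0.14, limma adjusted p = 0.0508).

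The Imd pathway, which answers mainly to Gram-negative bacteria, was counted for comparison, against the same shares of all probe sets (15.0% between levels, 43.9% against the control). Of 8 recognition and signalling genes tested, 2 were higher and 2 lower in the most depressed sublines, with Rel (Relish), its transcription factor, at 0.64 (SE 0.09, limma adjusted p = 8.32e-05), Tab2 at 0.30 (SE 0.05) and Dredd at -0.15 (SE 0.04). Of 6 Imd effectors and regulators, pirk, a negative regulator, was higher by 1.10 (SE 0.22, adjusted p = 0.00132) and PGRP-SC2, an amidase that degrades peptidoglycan, was lower (-0.82, SE 0.17). Without the 3 arrays with eggshell transcripts Rel (0.68), Tab2 (0.28), pirk (1.07) and PGRP-SC2 (-0.78) kept their calls and Dredd did not (-0.14, limma adjusted p = 0.0559). With the sample code as a covariate Tab2 (0.33) and PGRP-SC2 (-1.13) kept them, and Rel (0.39, limma adjusted p = 0.0798), pirk (1.13, 0.0617) and Dredd (-0.14, 0.247) did not. Against the control 5 of the 8 recognition and signalling genes were higher and 2 lower. Those that were higher included imd (0.41, SE 0.12), Dredd (0.28, SE 0.06) and IKKbeta (0.24, SE 0.08), and Rel was lower (-0.70, SE 0.14, limma adjusted p = 4.33e-04). Of the 6 effectors and regulators 0 were higher and 1 lower, pirk (-1.87, SE 0.32, limma adjusted p = 1.19e-04). In Rel and pirk the most depressed sublines lay above the least depressed and the inbred flies on average below the control. The antimicrobial peptide gene CecB (0.37, SE 0.26) and PGRP-SB1 (0.45, SE 0.30), which encodes a peptidoglycan recognition protein, did not pass between levels. The JAK-STAT and Turandot list had 3 genes tested, of which Tep4 was higher in both comparisons (0.25, SE 0.08, and 1.05, SE 0.12). Its call between levels was lost without the eggshell arrays (0.26, limma adjusted p = 0.0559) and with the sample code (0.11, 0.709).

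**Figure D5:**
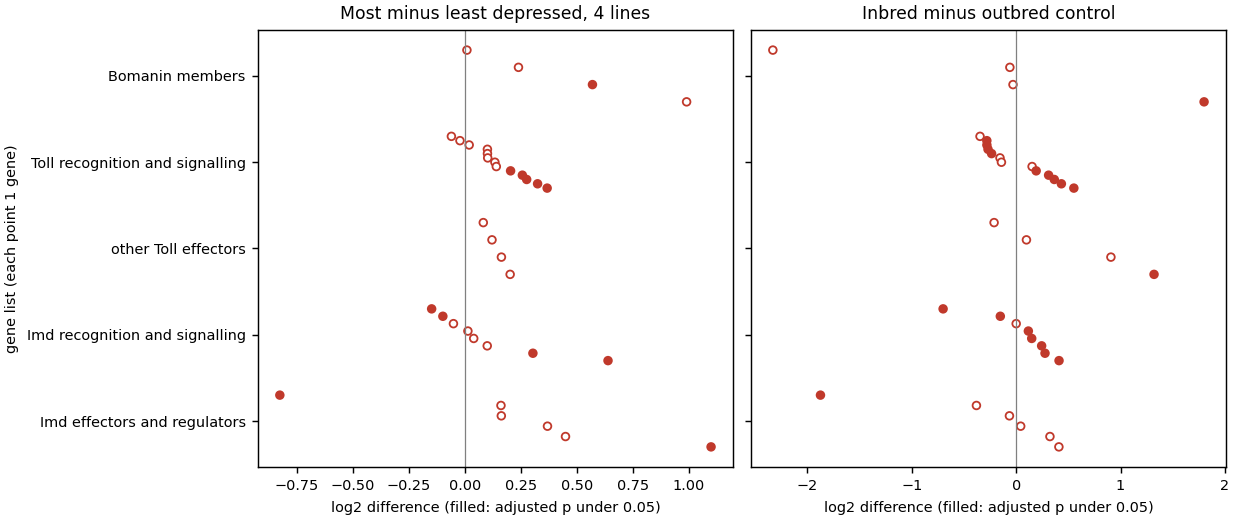
Log2 difference (horizontal axes) of each tested gene in 5 lists, 1 point for a gene, filled where the limma adjusted p was under 0.05. Left, most minus least depressed over 4 lines: the filled points of Toll signalling (5 of 13) are all above 0; right, inbred minus control: they lie on both sides, 5 above and 4 below, and 1 Bomanin member (BomBc3, 1.80) is filled.

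In whole flies, more RNA per cell and more cells of a type cannot be told apart, so markers of the tissues that make Bomanins are given beside them. The summed level of 8 fat body markers (log2 of the sum of linear values) ran from 13.73 to 14.76 in the most depressed, from 13.67 to 14.18 in the least depressed and from 13.91 to 14.06 in the control arrays. The 8 markers had medians over the arrays from 4.79, for Fbp1, to 13.13, for apolpp. Of the 8, 2 were higher and 1 lower in the most depressed sublines (15.0% of all probe sets were called), with Lsp2, a storage protein, at 1.37 (SE 0.32, limma adjusted p = 0.00522) and bmm, a fat lipase, at 0.71 (SE 0.08, 4.50e-06). Before adjustment 6 of the 8 were under 0.05 by limma. Without the eggshell arrays Lsp2 and bmm were at 1.27 and 0.71 and kept their calls. With the sample code as a covariate Lsp2 lost its call (1.14, SE 0.50, limma adjusted p = 0.213) and bmm kept it (0.66). Against the control, where 43.9% of all probe sets were called, 2 of the 8 were higher and 1 lower (median -0.05). The gene fit, for a satiety peptide, was 4.12 higher (SE 0.58, limma adjusted p = 1.35e-05), AkhR 0.48 higher (SE 0.19, 0.0408) and bmm lower (-0.94, SE 0.12). The AkhR call was lost without the eggshell arrays (0.46, limma adjusted p = 0.0667). Of 9 hemocyte markers 0 passed between levels by limma (1 was under 0.05 before adjustment), and 3 were lower in inbred flies: NimC4 (-2.72, SE 0.42), vkg (-1.42, SE 0.16) and Col4a1 (-1.35, SE 0.15). The latter pair encodes collagen IV, which the fat body also makes. The summed level of the 9 was 12.81 to 12.91 in the controls and 11.62 to 12.27 in the inbred arrays. That sum is weighted to the highest markers, among them Col4a1 and vkg (maxima 11.22 and 11.16). The median over the 9 of the deviation from each gene's median overlapped between the groups. It was 0.12 to 0.21 in the controls, -0.21 to 0.19 in the most depressed and -0.33 to 0.22 in the least depressed arrays. Of 9 accessory gland genes, 5 were lower in the most depressed sublines and 6 higher in inbred flies than in the control. Without the eggshell arrays 2 of the 9 were lower between levels (1254 of 9328 probe sets called in all). With the sample code 1 was (383 of 9512 in all). The part of these tissues in the Bomanin levels was not tested.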

How the data were processed

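Total RNA of pools of whole adult males was measured on Affymetrix Drosophila Genome 2.0 arrays. Per the labels, the authors background-corrected, quantile normalized and summarised probe sets with RMA (Partek 7.3.3 and affy), and deposited log2 values for all 27 arrays and, separately normalized, for the 24 inbred arrays, which was used as an alternative. The array maker's 183 control probe sets were left out. Of 18769 others, 13646 carried 1 gene symbol, 402 several and 4721 none, and only those with 1 were named. The genome build of the probe annotation is not given in the sources used here, so no coordinates are given.

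Group means (9) were fitted with limma 3.58.1 (R 4.3.3, trend in the variance prior) to the 9512 probe sets with a log2 value of at least 7 in at least 1 array, with Benjamini-Hochberg adjustment over all of them and a threshold of 0.05, two-sided. The fit was tested on simulated data. Averages over lines weight the lines equally. No source ties equal replicate numbers together, so they were not blocked. Pearson and Spearman correlations are descriptions with no p. Depth does not apply to arrays, and their number, 3 for a group, limits the precision.

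The members and gene lists were chosen with earlier results of these data known. Named beside the members were the 10 probe sets most like their mean and genes from the 4 tested in each list with the largest change between levels and against the control. Not all of these 4 are named for every list. Other names were chosen after their values were seen. Alternatives were no filter, a filter on the mean, no trend, array weights, median centring, the sample code as a covariate, a replicate block, leaving out the 3 arrays with eggshell transcripts, the 24-array table, only the arrays compared, and each array left out. The gene lists were refitted without the eggshell arrays and with the sample code, a choice made after the data were seen.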

Additional observations from a re-analysis of the deposited data

How the results depend on the processing

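Over the 4 lines BomBc2 passed the threshold in the main fit and under all 37 alternatives (0.53 to 0.66), and BomBc3 against the control under all 35 (1.71 to 1.88). The table of the 24 inbred arrays and the use of only the arrays compared gave no control comparison of their own. BomBc2 in line 12 no longer passed when only the 6 arrays of that line were used (0.64, 0 members called), with 2 groups and fewer arrays to estimate the spread. Signs turned for differences that passed nowhere: BomT2 between levels with array weights (-0.07), BomBc3 between levels with the sample code as a covariate (-0.08), and BomS2 against the control with array weights (0.00). Leaving out single arrays, BomT2 between levels ran from 0.59 to 1.60, BomBc3 between levels ran from -0.09 to 0.11, and BomBc2 against the control from -0.08 to 0.01. The cause was not tested.

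Counts over all probe sets moved more than those of the members. Between levels over the 4 lines 1431 were called, and 383 with the sample code as a covariate. In line 5 the count of 191 ran from 17 (only its arrays) to 216, in line 7 that of 4 from 0 to 115 (array weights), in line 12 that of 439 from 14 (sample code) to 947 (array weights) and in line 15 that of 136 from 0 (only its arrays) to 140. The interaction of line and level ran from 1 to 21 around 8. Against the control 2821 were higher and 1351 lower, and 1772 and 1851 after median centring, which moved the median of all from 0.11 to 0.02.

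Replicate numbers did not pair the samples: deviations from group means of same-numbered arrays had a mean correlation of -0.04 over 84 pairs, and others 0.02 over 168. With the replicate number as a block BomBc2 was 0.57 higher between levels (limma adjusted p = 1.08e-05), BomBc3 was 1.80 against the control (2.24e-05), and the interaction had 1 call in place of 8. No call of a member changed. Of the other family genes, BomT3 in line 5 (limma adjusted p = 0.0511) and BomS6 against the control (0.053) lost theirs.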
